A study of Homo sapiens with 10 samples.

Results

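ATP-binding cassette (ABC) transporters were examined in 5 human prostate cancer cell lines profiled by bulk RNA-seq. The members were taken as every symbol of the deposited expression table made of ABC, a subfamily letter from A to G and a number, which leaves out symbols marked as pseudogenes or antisense genes. This rule found 46 of the 60642 symbols, among them ABCC13, which RefSeq lists as a transcribed pseudogene. Of these 46 members, 29 reached 1 TPM in at least 2 of the 10 samples and were among the 17520 genes tested. TPM is the abundance of a gene's transcripts, corrected for their length and scaled to a fixed total in each sample.

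Cells of PC3, DU145, VCAP, DUCAP and LNCaP were profiled, and the labels name 2 biological repeats of every line. All cells were untreated, were grown in RPMI medium without phenol red that held 5 to 10% fetal bovine serum by the labels (the methods name the lower figure alone), and were harvested while growing exponentially. LNCaP was the FGC clone, DUCAP was obtained from another laboratory, and VCAP and DUCAP were derived from metastases of the same patient, so these lines are not a sample of prostate tumors at large. A p-value here measures the spread between repeats of these lines and speaks of no other line. Each culture was profiled in bulk, in which fewer cells that express a gene and less RNA per cell cannot be told apart.

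ABC proteins bind and split ATP and use the energy to move a substrate across a membrane, or, in the E and F subfamilies, to act on ribosomes without any membrane domain. Members of the B, C and G subfamilies export drugs and their conjugates and are known for multidrug resistance of tumor cells. Most A members, and the D members that import fatty acids into peroxisomes, move lipids, and several B members work in the membranes of mitochondria and other organelles.

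The sequences below serve to show how unlike the promoters of members with their highest mean in the same line can be. ABCC4 and ABCA12 both had their highest mean in LNCaP as deposited. ABCA5 and ABCA6, which belong to a cluster of 5 A members on chromosome 17, both had their highest mean in PC3. Within each pair the levels were unlike: ABCC4 and ABCA5 reached 1 TPM in all 10 samples, ABCA12 in LNCaP only and ABCA6 in no sample. Each run gives the 250 bases before the gene's start in RefSeq on GRCh38.p14, read 5′ to 3′, and capitals mark CpG dinucleotides.
ABCC4 upstream bases, chr13:95301452-95301701, minus strand: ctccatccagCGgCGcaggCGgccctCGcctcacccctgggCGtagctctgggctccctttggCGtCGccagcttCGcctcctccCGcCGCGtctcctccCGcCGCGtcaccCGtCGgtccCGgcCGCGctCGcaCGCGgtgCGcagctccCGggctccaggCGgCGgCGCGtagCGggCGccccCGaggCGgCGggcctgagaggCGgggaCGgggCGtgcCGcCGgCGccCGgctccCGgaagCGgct
ABCA12 upstream bases, chr2:215138627-215138876, minus strand: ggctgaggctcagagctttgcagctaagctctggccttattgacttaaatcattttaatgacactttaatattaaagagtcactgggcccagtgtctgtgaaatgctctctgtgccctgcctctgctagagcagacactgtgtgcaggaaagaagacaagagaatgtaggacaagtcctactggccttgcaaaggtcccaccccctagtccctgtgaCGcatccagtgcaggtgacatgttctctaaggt
ABCA5 upstream bases, chr17:69327134-69327383, minus strand: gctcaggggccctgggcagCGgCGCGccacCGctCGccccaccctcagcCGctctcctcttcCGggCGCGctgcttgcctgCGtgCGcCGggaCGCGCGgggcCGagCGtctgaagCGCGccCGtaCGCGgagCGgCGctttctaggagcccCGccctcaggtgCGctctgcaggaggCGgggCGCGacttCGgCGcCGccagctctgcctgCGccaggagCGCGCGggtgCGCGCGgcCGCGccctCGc
ABCA6 upstream bases, chr17:69141896-69142145, minus strand: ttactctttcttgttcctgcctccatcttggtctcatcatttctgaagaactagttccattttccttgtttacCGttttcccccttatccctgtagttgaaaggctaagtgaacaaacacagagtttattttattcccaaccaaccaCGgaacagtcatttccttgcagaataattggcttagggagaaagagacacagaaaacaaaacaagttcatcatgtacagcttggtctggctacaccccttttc
The upstream bases of ABCC4 and of ABCA5 each held 42 CpG dinucleotides, whereas those of ABCA12 held 1 and those of ABCA6 held 2.

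The identity of the cultures was checked on genes known to differ between these lines. ERG, which a gene fusion activates in VCAP and DUCAP, lay between 122 and 199 TPM in these lines and did not exceed 0.19 TPM elsewhere. Of 10 markers of blood cells, endothelium and fibroblasts, the sum lay between 1.34 and 10.6 TPM in LNCaP, DUCAP and VCAP, between 75.6 and 106 TPM in DU145 and between 72.1 and 74.2 TPM in PC3. CD3E was at 0 in every sample, PTPRC did not exceed 0.12 TPM and CDH5 did not exceed 0.09 TPM, while CD68 made up most of the sum in DU145. In PC3, CD68 was at 38.9 and 34.3 TPM and the fibroblast marker COL1A1 at 31.5 and 38.0 TPM. The other fibroblast markers, COL1A2, DCN, LUM and PDGFRB, did not exceed 0.86 TPM in PC3. The part of these markers in the results was not tested. The 37 mitochondrial genes took 32.1 to 36.0% of the TPM in DUCAP and VCAP and 12.7 to 22.5% in the other lines, and this lowers the TPM of every other gene there. The DU145 repeats stood apart from each other, with a gap of 2-fold or more in 9.48% of all genes tested against 0.902 to 2.12% in the other lines. In DU145 this gap held for ABCA2, ABCA7, ABCC3 and ABCE1, in VCAP for ABCA2, and in the remaining lines for no member.

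Most of the family was either present in all lines or close to absent from all of them. At 1 TPM or more in all 10 samples were 19 of the 46 members (41.3%), against 17.0% of all symbols. Among these were ABCA2, ABCA3, ABCA5 and ABCA7, ABCB6, ABCB8, ABCB9 and ABCB10, ABCC1, ABCC4, ABCC5 and ABCC10, ABCD3 and ABCD4, and all of ABCE1 and ABCF1 to ABCF3. A further 13 members (28.3%) stayed under 1 TPM in every sample, and 3 of these, ABCC12, ABCC13 and ABCG5, were listed at 0 throughout. Between these extremes, 10 members reached 1 TPM in 2 to 9 samples and 4 in 1 sample. The share of all symbols is a loose comparison. Of the 17934 genes with a RefSeq promoter window, 7968 were at 1 TPM or more in all samples and 6029 under it throughout. The 35 members with a window were near these shares, with 17 and 10. The summed TPM of the family was 650 to 725 in DU145, 629 to 658 in PC3 and 638 to 645 in LNCaP, against 377 to 442 in VCAP and 365 to 412 in DUCAP.

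**Figure D1:**
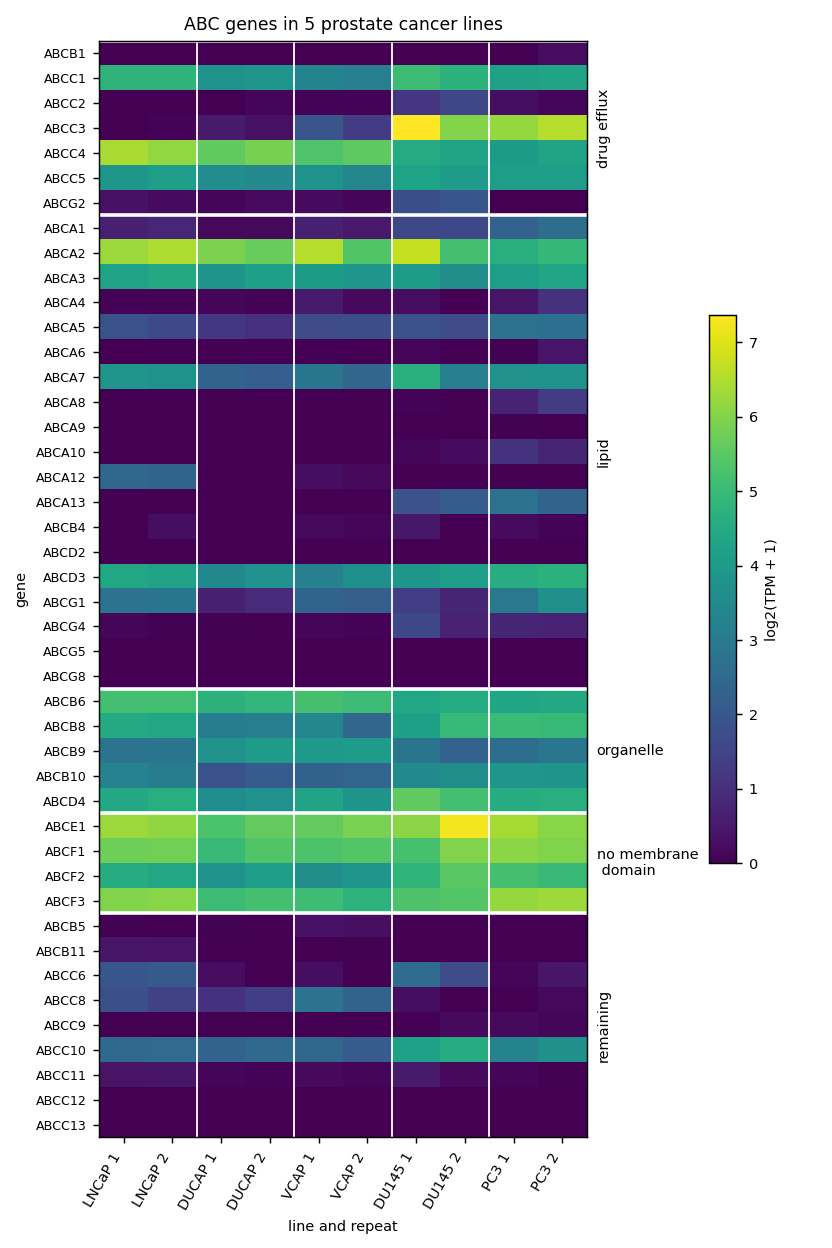
Level of 44 of the 46 members (rows, grouped by role) in each of the 10 samples (columns, 2 repeats per line), as log2(TPM + 1) by color. ABCC3 changes from dark in LNCaP, DUCAP and VCAP to bright in DU145 and PC3, while the 4 members without a membrane domain are bright in every sample.

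Across the 5 lines, 27 of the 29 members tested differed (93.1%) by the moderated F test of limma on log2(TPM + 1) with Benjamini-Hochberg adjustment at 0.05, against 90.8% of all genes tested. The share of members was thus close to that of genes in general. The 2 members that did not pass were ABCA2, a lipid transporter abundant in nerve cells (adjusted p = 0.104, limma), and ABCA3, the surfactant lipid transporter of the lung (adjusted p = 0.166). ABCA3 had the narrowest range of line means of the members tested, 1.43-fold from DU145 to LNCaP. ABCC3 had the widest, with a span of 6.64 on the log2(TPM + 1) scale between the lowest and the highest line.

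Among the drug efflux members, ABCC4, which exports cyclic nucleotides and conjugated steroids, was highest in LNCaP. It was at 85.6 and 71.3 TPM in LNCaP, 47.0 and 56.9 TPM in DUCAP and 39.6 and 45.1 TPM in VCAP. The repeats of DU145 had 22.0 and 18.8 TPM and those of PC3 had 15.1 and 18.8 TPM. LNCaP, DUCAP and VCAP did not overlap each other and lay above DU145 and PC3, which overlapped. The log2 difference from the mean of the other 4 lines was 1.37 (SE 0.14, adjusted p = 6.03e-05, limma) in LNCaP, -0.99 (SE 0.14, adjusted p = 3.63e-04) in DU145 and -1.31 (SE 0.14, adjusted p = 6.26e-05) in PC3. In DUCAP it was 0.64 (SE 0.14, adjusted p = 3.71e-03) and in VCAP 0.29 (adjusted p = 0.102). Without DUCAP repeat 2 the DUCAP difference was 0.51 and missed the threshold.

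The order of ABCC4 in the lines with much ABCC4 depended on the scaling. LNCaP exceeded DUCAP by 0.59 on the log2 scale (SE 0.18, adjusted p = 0.0190) in the TPM as deposited, but this difference became -0.10 with quantile normalization, -0.17 with median-ratio scaling and 0.32 with the mitochondrial genes left out. The DUCAP to VCAP step of 0.28 (95% interval -0.12 to 0.69, adjusted p = 0.324) and the DU145 to PC3 step of 0.26 (-0.15 to 0.66, adjusted p = 0.266) did not pass the test. The step between these sets did: VCAP exceeded DU145 by 1.02 (SE 0.18, adjusted p = 1.02e-03), and by 1.34 to 1.66 under the 3 other scalings. ABCC4 occupies chr13:95019835-95301451, and the CpG-rich upstream bases printed above belong to it.

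ABCC3, an exporter of bile acids and glucuronides, had nearly the reverse pattern. It was at 164 and 62.5 TPM in DU145 and 72.8 and 93.4 TPM in PC3. The VCAP repeats had 2.83 and 1.5 TPM, the DUCAP repeats 0.45 and 0.27 TPM and the LNCaP repeats 0 and 0.06 TPM. DU145 and PC3 lay far above the other lines, and the widely spaced DU145 repeats enclosed those of PC3. The log2 difference from the other 4 lines was 4.55 (SE 0.32, adjusted p = 7.36e-06) in DU145 and 4.19 (SE 0.32, adjusted p = 9.85e-06) in PC3. For DU145 it was 3.86 without repeat 1 and 5.25 without repeat 2, past the threshold both times. It was -3.74 for LNCaP, -3.24 for DUCAP and -1.76 for VCAP (SE 0.32, adjusted p = 2.56e-05, 5.88e-05 and 1.76e-03). PC3 exceeded VCAP by 4.75 (SE 0.41, adjusted p = 1.67e-05), whereas DU145 and PC3 differed by 0.30 (95% interval -0.65 to 1.24, adjusted p = 0.591). The steps from VCAP to DUCAP (1.19, adjusted p = 0.0827) and from DUCAP to LNCaP (0.40, adjusted p = 0.441) missed the threshold. The gene lies at chr17:50634881-50692253, far from the chromosome 17 cluster of A members.

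ABCC1, a broad exporter of glutathione conjugates, was expressed everywhere. It was at 32.1 and 25.5 TPM in DU145, 26.9 and 26.8 TPM in LNCaP, 17.8 and 18.7 TPM in PC3, 12.7 and 13.4 TPM in DUCAP, and 9.07 and 7.83 TPM in VCAP. DU145 and LNCaP overlapped, and each of the other lines was separate from its neighbors. ABCC1 was higher in DU145 (0.86, SE 0.12, adjusted p = 3.58e-04) and LNCaP (0.75, SE 0.12, adjusted p = 7.96e-04) and lower in VCAP (-1.20, SE 0.12, adjusted p = 6.52e-05), under every scaling. Its difference in DUCAP, -0.49 as deposited (adjusted p = 6.91e-03), was 0.15 with quantile normalization and 0.13 with median-ratio scaling, and its difference in PC3, 0.08, was between -0.39 and -0.14 under the 3 other scalings.

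ABCC5, an exporter of cyclic nucleotides, varied least of the efflux members that were present in all lines. It was at 18.4 and 16.0 TPM in DU145, 16.6 TPM in both PC3 repeats, 14.01 and 16.3 TPM in LNCaP, 12.7 and 9.4 TPM in VCAP, and 11.3 and 10.04 TPM in DUCAP. No pair of neighbors in this order passed the test, with adjusted p from 0.0633 to 0.954, and the sign of its difference in each line changed with the scaling.

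The other drug efflux members were low. ABCG2, the breast cancer resistance protein, was at 2.44 and 2.92 TPM in DU145 and did not exceed 0.28 TPM in any other sample, with both PC3 samples at 0. ABCC2, the canalicular exporter of conjugates, was at 1.26 and 1.97 TPM in DU145 and at most 0.22 TPM elsewhere, with both LNCaP samples at 0. Both passed the filter only through DU145 and so had to differ: the log2 difference in DU145 was 1.72 for ABCG2 (SE 0.09, adjusted p = 1.77e-06) and 1.29 for ABCC2 (SE 0.11, adjusted p = 2.29e-05). ABCB1, which encodes P-glycoprotein, was at 0 in LNCaP, DUCAP and VCAP, at 0.01 and 0 TPM in DU145 and at 0.02 and 0.19 TPM in PC3, and was not tested. The paper's methods give only an approximate range of read pairs, and TPM do not keep the depth of each sample. Such values therefore do not show that ABCB1 was absent.

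**Figure D2:**
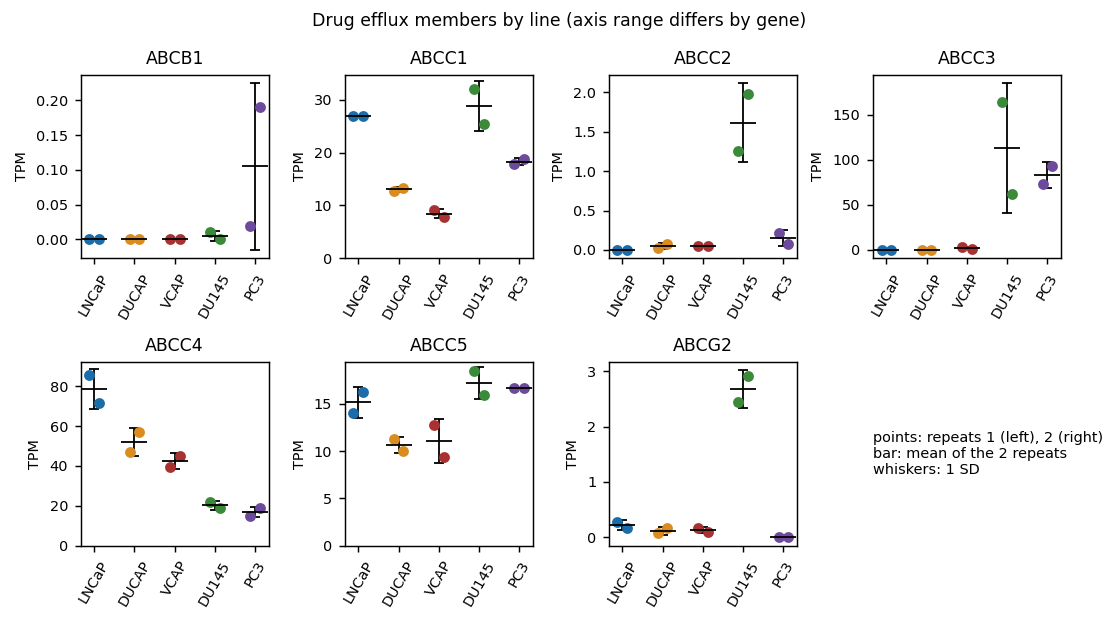
TPM of the 7 drug efflux members in each line. Points are the repeats, the horizontal bar is their mean and the whiskers are 1 SD, and the axis range differs by gene. ABCC4 is highest in both LNCaP samples (85.6 and 71.3 TPM as deposited, a lead over DUCAP that changes sign with the scaling), ABCC3 is high only in DU145 and PC3, and ABCG2 and ABCC2 reach 1 TPM only in DU145.

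ABCC4 and ABCC3 exchanged places as the main efflux transcript. Ratios within a sample are comparable because TPM are corrected for length, and a change of a sample's total, such as leaving out the mitochondrial genes, does not move them. ABCC4 made up 61.5 to 70.5% of the summed efflux TPM in LNCaP, DUCAP and VCAP and 9.13 to 14.7% in DU145 and PC3. ABCC3 made up at most 4.39% in the former lines and 49.0 to 68.3% in the latter. The ranges did not overlap in either case.

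The summed TPM of the 7 efflux members was compared with that of the 20 lipid transporters. The ratio was 1.36 and 1.52 in DU145, 0.942 and 0.993 in PC3, 0.804 and 0.950 in DUCAP, 0.699 and 0.613 in LNCaP, and 0.484 and 0.809 in VCAP. With all 20 lipid transporters, DU145 was the only line with more efflux than lipid transcripts, with a mean of 1.44 ± 0.111 (SD, n = 2), and both of its repeats lay above every other sample. The means of the other lines were 0.967 ± 0.0359 for PC3, 0.877 ± 0.104 for DUCAP, 0.656 ± 0.0607 for LNCaP and 0.647 ± 0.230 for VCAP. DUCAP, VCAP and PC3 were not separated from all of their neighbors: the VCAP repeats enclosed those of LNCaP and the lower DUCAP repeat, and PC3 overlapped DUCAP. With a narrower lipid list, which leaves out ABCA2 and keeps members such as ABCA1, ABCA3, ABCA7, ABCB4, ABCD3 and ABCG1, every line had more efflux than lipid transcripts, from 1.26 in LNCaP to 3.31 in DU145. No p is given for these sums. ABCA2 was the largest lipid transcript in LNCaP, DUCAP, VCAP and DU145, with 41.7 to 69.5% of the lipid sum, and made up 18.5 and 19.7% in PC3.

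**Figure D3:**
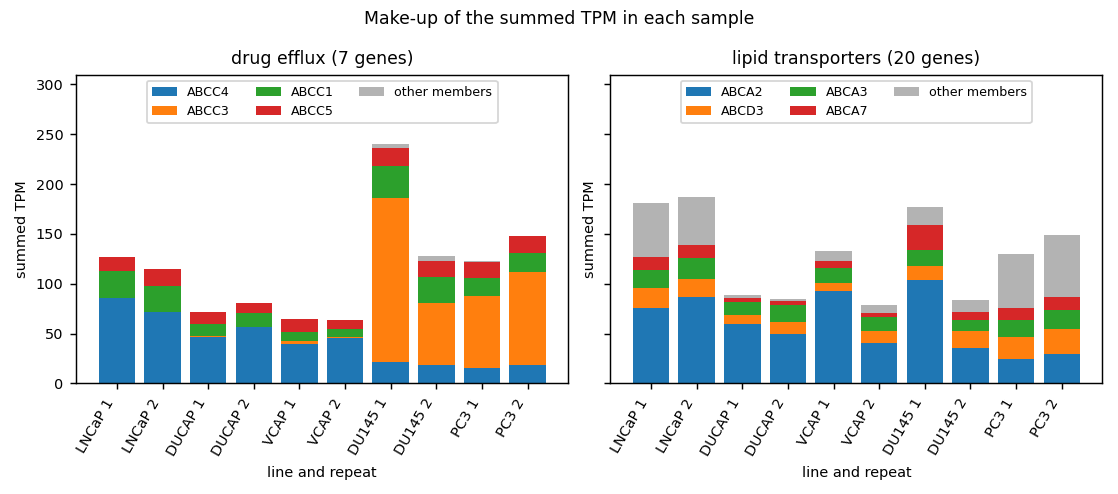
Summed TPM (vertical axis) of the 7 drug efflux members (left) and the 20 lipid transporters (right) in each sample, stacked by gene. The efflux sum consists mainly of ABCC4 in LNCaP, DUCAP and VCAP (61.5 to 70.5%) and of ABCC3 in DU145 and PC3 (49.0 to 68.3%), and ABCA2 takes a smaller share of the lipid sum in PC3 (18.5 and 19.7%) than in any other sample.

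ABCD3, which imports fatty acids into peroxisomes, was at 8.34 TPM or more in every sample. It was at 23.0 and 24.9 TPM in PC3, 20.2 and 18.2 TPM in LNCaP, 15.2 ± 1.74 TPM in DU145 (SD, n = 2), 9.91 and 12.4 TPM in DUCAP and 8.34 and 11.9 TPM in VCAP. Both PC3 repeats lay above all other samples, with a difference of 0.79 from the other 4 lines (SE 0.15, adjusted p = 2.04e-03) that was not called under all 4 scalings. ABCD2, a related peroxisomal importer, did not exceed 0.01 TPM.

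ABCA1 and ABCG1, exporters of cholesterol and phospholipids, had their highest means in PC3. ABCA1, which loads apolipoprotein A-I, was at 3.95 and 5.16 TPM in PC3, 2.05 and 2.03 TPM in DU145, 0.58 and 0.72 TPM in LNCaP, 0.58 and 0.42 TPM in VCAP and 0.11 TPM in both DUCAP repeats. PC3 exceeded DU145 by 0.86 (SE 0.15, adjusted p = 1.51e-03) and DU145 exceeded LNCaP by 0.88 (SE 0.15, adjusted p = 1.02e-03). ABCA1 passed the filter through PC3 and DU145 alone, so the differences of these lines from the others follow in part from the filter. ABCG1, which loads larger lipoprotein particles, was at 6.71 and 11.9 TPM in PC3, 6.01 and 6.29 TPM in LNCaP, 4.23 and 3.71 TPM in VCAP, 1.56 and 0.71 TPM in DU145, and 0.57 and 0.82 TPM in DUCAP. Its difference from the other 4 lines was 1.58 in PC3 (SE 0.22, adjusted p = 2.97e-04), 0.97 in LNCaP (SE 0.22, adjusted p = 4.81e-03), -1.24 in DU145 (SE 0.22, adjusted p = 1.30e-03) and -1.63 in DUCAP (SE 0.22, adjusted p = 2.86e-04). The ABCG1 step from PC3 to LNCaP, 0.48 (SE 0.28, adjusted p = 0.171, limma), did not pass the test. In DU145, then, ABCG1 was lower and ABCA1 higher (0.62, SE 0.11, adjusted p = 1.65e-03) than the mean of the other 4 lines, although ABCA1 was below PC3 and ABCG1 overlapped DUCAP.

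A pair of large A members marked separate lines. ABCA12, which carries glucosylceramide in the skin barrier, was at 4.59 and 4.19 TPM in LNCaP and at most 0.22 TPM elsewhere. It passed the filter through LNCaP alone and so had to differ, by 2.36 on the log2 scale (SE 0.08, adjusted p = 2.61e-07). ABCA13 was at 5.84 and 4.11 TPM in PC3, 2.66 and 3.38 TPM in DU145 and at most 0.02 TPM elsewhere. It passed the filter through these lines alone and so had to differ. Its difference was 2.05 in PC3 (SE 0.13, adjusted p = 2.89e-06), 1.35 in DU145 (SE 0.13, adjusted p = 3.80e-05) and -1.12 in LNCaP (SE 0.13, adjusted p = 1.20e-04). PC3 exceeded DU145 by 0.56 (adjusted p = 0.0205), a call lost without DU145 repeat 1 or PC3 repeat 1.

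The chromosome 17 cluster was a further set with its highest values in PC3. ABCA8, ABCA9, ABCA6, ABCA10 and ABCA5 lie in this order between positions 68867289 and 69327133. ABCA5 was at 5.74 and 5.45 TPM in PC3 and between 1 and 2.62 TPM in the other samples, a difference of 1.14 (SE 0.12, adjusted p = 6.30e-05). ABCA10 was at 1.10 and 0.68 TPM in PC3, 0.09 and 0.17 TPM in DU145 and 0 elsewhere, and ABCA8 was at 0.63 and 1.43 TPM in PC3, 0.06 and 0.01 TPM in DU145 and 0 elsewhere. The PC3 samples lay above all others for these 3 genes. ABCA6 was at 0.04 and 0.33 TPM in PC3 and 0.07 and 0 TPM in DU145, which overlap, and ABCA9 did not exceed 0.03 TPM. The 4 low members of the cluster were not tested. By their coordinates ABCA9 and ABCA6 overlap at their ends, as do ABCA10 and ABCA5, so reads from the overlap could have been counted for either gene.

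Of the other lipid transporters, ABCA2 was at 24.1 and 29.3 TPM in PC3 and between 35.9 and 104 TPM in the other samples. Its difference in PC3, -1.23 (SE 0.39, adjusted p = 0.0221), was lost without either PC3 repeat, and its VCAP repeats (92.7 and 40.6 TPM) and DU145 repeats (104 and 35.9 TPM) were far apart. ABCA7 lay between 3.58 and 24.5 TPM, with DU145 repeats at 24.5 and 8.04 TPM. ABCG4 was at 2.02 and 0.60 TPM in DU145, 0.69 and 0.67 TPM in PC3 and at most 0.09 TPM elsewhere, and ABCA4, the transporter of retinal derivatives in photoreceptors, reached 1.06 TPM in 1 PC3 sample. ABCB4, the phosphatidylcholine flippase of bile, did not exceed 0.39 TPM, and ABCG5 and ABCG8, the sterol exporters of gut and liver, did not exceed 0.01 TPM.

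All 6 members of organelles were at 2.60 TPM or more in every sample. ABCB9, a peptide transporter of lysosomes, was at 12.6 and 15.7 TPM in DUCAP, 14.8 and 15.5 TPM in VCAP and between 4 and 6.5 TPM in the other samples. DUCAP and VCAP overlapped and lay above all others, with differences of 0.86 (SE 0.17, adjusted p = 2.13e-03) and 0.99 (SE 0.17, adjusted p = 1.11e-03), and this step was larger under each of the 3 other scalings. ABCB10, which serves heme formation, and ABCB8, both of the inner mitochondrial membrane, were higher in PC3 than the mean of the other 4 lines. The differences were 1.06 (SE 0.13, adjusted p = 1.23e-04) and 1.21 (SE 0.26, adjusted p = 3.60e-03). PC3 was not called above DU145 for ABCB10 (0.25, adjusted p = 0.223, limma) or ABCB8 (0.41, adjusted p = 0.342), but was called above LNCaP for ABCB10. Between neighbors in the order of means, the called steps were LNCaP to VCAP for ABCB10 (0.83, adjusted p = 2.07e-03) and LNCaP to DUCAP for ABCB8 (1.31, adjusted p = 8.71e-03). ABCD4, which serves lysosomal export of vitamin B12, was at 46.1 and 35.1 TPM in DU145 and at most 23.9 TPM elsewhere (1.16, SE 0.16, adjusted p = 3.46e-04). ABCB6, a porphyrin transporter, lay between 19.3 and 35.4 TPM.

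The members without a membrane domain were at 11.5 TPM or more in all samples. ABCE1, which splits ribosomes after termination, lay between 38.2 and 149 TPM, with DU145 repeats at 67.7 and 149 TPM. ABCF3 was at 72.1 and 77.9 TPM in PC3, 61.4 and 65.3 TPM in LNCaP and at most 41.4 TPM in the other lines, which put it higher in PC3 (0.89, SE 0.11, adjusted p = 1.90e-04) and LNCaP (0.59, SE 0.11, adjusted p = 2.20e-03) under every scaling. ABCF1, a factor of translation initiation, lay between 30.6 and 66.5 TPM, and ABCF2 between 11.5 and 44.0 TPM. The values of ABCF2 have more decimals than those of most genes, which fits a mean of several entries of the same symbol, and how they were merged is not stated. In DUCAP all 4 were lower as deposited, but none was called with quantile normalization or median-ratio scaling, where ABCF1 and ABCF3 turned positive (0.10 and 0.12 with quantile normalization).

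Among the remaining members, ABCC8, the sulfonylurea receptor of potassium channels, was at 5.93 and 4.10 TPM in VCAP, 2.49 and 1.66 TPM in LNCaP, 1.06 and 1.57 TPM in DUCAP, and at most 0.21 TPM in DU145 and PC3. The difference from the other 4 lines was 1.81 in VCAP (SE 0.17, adjusted p = 4.74e-05), -1.23 in DU145 (SE 0.17, adjusted p = 3.44e-04) and -1.30 in PC3 (SE 0.17, adjusted p = 2.20e-04). VCAP lay above all other samples and exceeded DUCAP, the line from the same patient, by 1.37 (SE 0.22, adjusted p = 3.99e-03). ABCC10, an exporter related to ABCC1, was at 17.6 and 22.4 TPM in DU145, 8.76 and 12.1 TPM in PC3 and between 3.34 and 5.02 TPM elsewhere, with a difference of 1.69 in DU145 (SE 0.17, adjusted p = 4.88e-05). ABCC6 was at 2.91 and 3.27 TPM in LNCaP, 5.01 and 2.22 TPM in DU145 and at most 0.37 TPM elsewhere, but its near-identical pseudogenes ABCC6P1 and ABCC6P2 were also listed in these lines, at 0.81 to 3.37 TPM, so the division of reads between them is uncertain. The other 6 stayed under 1 TPM. ABCB11, the bile salt export pump, reached 0.36 TPM in LNCaP, ABCB5 reached 0.28 TPM in VCAP, ABCC11 did not exceed 0.45 TPM and ABCC9 did not exceed 0.14 TPM.

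Each line was then compared with the mean of the other 4. In LNCaP, 10 of 29 members were higher and 7 lower, against 38.2% and 24.2% of all genes, and the median difference was 0.25 for members and 0.18 for all genes. In DU145, 14 were higher and 8 lower, against 40.7% and 22.3%, with medians of 0.36 and 0.23. In PC3, 13 were higher and 8 lower, against 43.2% and 24.7%, with medians of 0.31 and 0.26. In DUCAP, 3 were higher and 22 lower, against 11.1% and 57.7%, with medians of -0.66 and -0.54, and in VCAP 3 were higher and 17 lower, against 17.3% and 46.6%, with medians of -0.41 and -0.36. As deposited, the lean of the members in each line thus followed that of all genes. Of the 29 members tested, 10 reached 1 TPM in 2 to 9 samples only, so their calls follow in part from the filter. Without its repeat 1 the LNCaP comparison called 8 members, and without repeat 2 it called 11, against 17 with both. The DUCAP comparison called 14 without its repeat 1, against 25. Without DU145 repeat 1 the DU145 comparison called 20 members, and without repeat 2 it called 18, against 22.

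This lean depended on the scaling, and DUCAP and VCAP were the lines with the largest mitochondrial share. After quantile normalization the median of all genes was between -0.12 and -0.00 in every line. The members split into 9 higher and 10 lower in PC3 and 10 and 11 in DU145. They split into 6 and 13 in VCAP, 6 and 8 in DUCAP, and 7 and 6 in LNCaP. Of all 17520 genes tested, 5120 were higher and 6326 lower in PC3, and 4911 and 6296 in DU145. The counts of all genes were 5044 and 5712 in VCAP, 5044 and 5145 in DUCAP, and 5209 and 5387 in LNCaP. Median-ratio scaling split the members into 10 and 9, 11 and 10, 5 and 14, 5 and 10, and 7 and 7 in the same order of lines. Of all 17286 genes tested there, 5525 were higher and 5857 lower in PC3, and 5194 and 5586 in DU145. The counts of all genes were 4850 and 5755 in VCAP, 4617 and 5830 in DUCAP, and 4735 and 5682 in LNCaP. With the mitochondrial genes left out of the total the members split into 11 and 9, 12 and 9, 4 and 15, 3 and 17, and 9 and 7. The counts of all 18288 genes tested were then 6461 and 5355, 6577 and 4635, 4392 and 6629, 2676 and 8748, and 6189 and 4870. In VCAP the member median was below that of all genes: -0.29 against -0.06 (quantile), -0.28 against -0.07 (median-ratio) and -0.37 against -0.18 (without mitochondrial genes). This gap was wider than in any other line under these 3 scalings and was not tested. ABCC1, ABCC5, ABCD3, ABCF1 and ABCF3 were called lower in DUCAP as deposited and changed sign under another scaling.

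Calls that held under all 4 scalings numbered 18 for DU145, 17 for PC3, 16 for VCAP, 13 for LNCaP and 11 for DUCAP. In LNCaP these included higher ABCA12, ABCC1, ABCC4, ABCC6, ABCF3 and ABCG1 and lower ABCA1, ABCA13, ABCB9, ABCC2, ABCC3 and ABCC10. In DU145 they included higher ABCA1, ABCA13, ABCC1, ABCC2, ABCC3, ABCC6, ABCC10, ABCD4, ABCF2 and ABCG2 and lower ABCA12, ABCB6, ABCB9, ABCC4, ABCC8 and ABCG1. In PC3 they included higher ABCA1, ABCA5, ABCA13, ABCB8, ABCB10, ABCC3, ABCF3 and ABCG1 and lower ABCA2, ABCA12, ABCB6, ABCB9, ABCC4, ABCC6, ABCC8 and ABCG2. In DUCAP ABCB9 and ABCC4 were higher, in VCAP ABCB6, ABCB9 and ABCC8 were higher, and ABCA1, ABCA12, ABCA13, ABCB10, ABCC3 and ABCC6 were lower in both lines. ABCG1 was also lower in DUCAP, and ABCB8, ABCC1, ABCC10, ABCF2, ABCF3 and ABCG2 were also lower in VCAP. These comparisons share samples. The share of all genes called under all 4 scalings was not computed. The calls of ABCA12 rest on its level in LNCaP, those of ABCC2 and ABCG2 on DU145 and those of ABCA13 on PC3 and DU145, the lines through which they passed the filter. ABCA1 passed it through PC3 and DU145 alone and ABCC6 through LNCaP and DU145 alone, so their calls follow in part from the filter. With each sample left out in turn as well, 14 of the calls under all 4 scalings held for DU145, 12 for PC3, 13 for VCAP, 8 for LNCaP and 9 for DUCAP. LNCaP lost ABCA1, ABCA12, ABCB9, ABCC2 and ABCC10, PC3 lost ABCA2, ABCA12, ABCB9, ABCC6 and ABCG2, VCAP lost ABCA12, ABCB6 and ABCG2, and DUCAP lost ABCA12 and ABCC4. In DU145, ABCA12, ABCC2 and ABCG2 were among the calls lost.

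**Figure D4:**
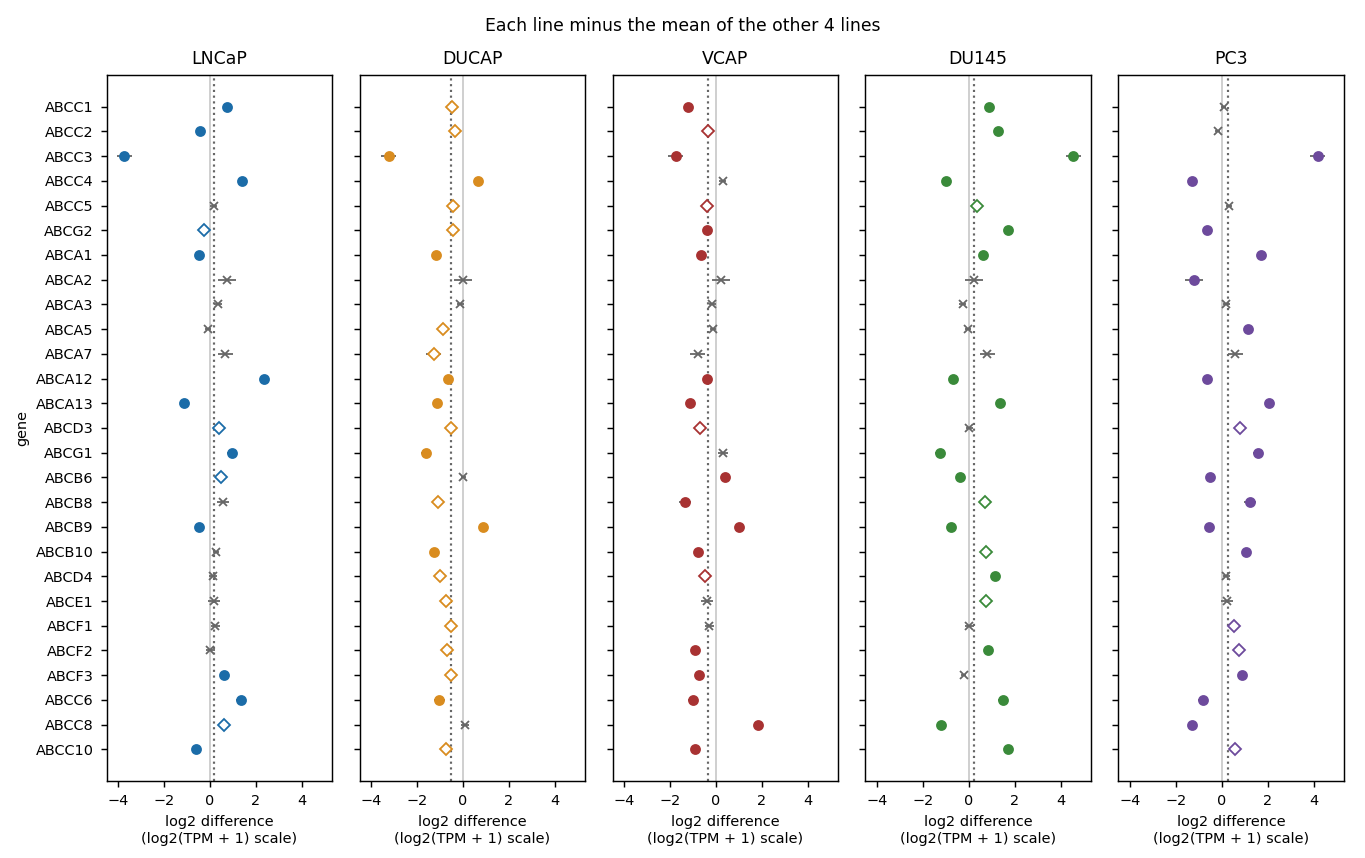
Difference of each line from the mean of the other 4 on the log2(TPM + 1) scale (horizontal axis) for 27 of the 29 members tested. Filled circles were called under all 4 scalings, open diamonds as deposited but not under all of them, crosses were not called, whiskers are 1 SE and the dotted line is the median of all genes (-0.54 in DUCAP, 0.26 in PC3). ABCC3 lies farthest out in 4 panels, and in DUCAP most open diamonds lie close to the dotted line.

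By role, the 6 efflux members tested split into 5 higher and 1 lower in DU145, where 40.7% of all genes were higher and 22.3% lower. Of the 5, ABCC2 and ABCG2 passed the filter through DU145 alone and had to be higher. In VCAP the efflux members split into 0 higher and 5 lower, against 17.3% and 46.6%. Among these 5 were again ABCC2 and ABCG2, so their lower calls in VCAP rest on the DU145 level through which they passed the filter. In DU145 the split was 4 and 1 under each of the 3 other scalings, ABCC4 being the lower member. In VCAP it was 1 and 3 after quantile normalization and 1 and 4 under the other alternatives, ABCC4 being the higher member. The 10 lipid transporters tested split into 6 higher and 2 lower in PC3, where 43.2% of all genes were higher and 24.7% lower, and into 5 and 2 after quantile normalization. In DUCAP 0 of them were higher and 8 lower, where 11.1% of all genes were higher and 57.7% lower, and 1 and 5 after quantile normalization. Among the 6 higher in PC3 were ABCA1 and ABCA13, which passed the filter through PC3 and DU145 alone. Among the 8 lower in DUCAP were ABCA1, ABCA12 and ABCA13, which passed it only through other lines. The groups by role are small and the counts carry no test. The counts of all genes under the other scalings are those given above by line.

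Between pairs of lines, the share of members called was below that of all genes in some pairs and above it in others. LNCaP differed from DUCAP in 17 of 29 members (58.6%), from VCAP in 14 (48.3%), from DU145 in 16 (55.2%) and from PC3 in 13 (44.8%), against 60.7%, 60.1%, 55.9% and 57.7% of all genes. DUCAP differed from DU145 in 21 (72.4%) and from PC3 in 22 (75.9%), against 66.6% and 67.8%, and VCAP differed from DU145 in 22 (75.9%) and from PC3 in 21 (72.4%), against 65.4% and 67.6%. DU145 and PC3 differed in 13 (44.8%), against 49.3%. DUCAP and VCAP differed in 5 (17.2%), against 18.3%, and ABCA5, ABCC1, ABCC8 and ABCG1 were among them. Of these, ABCC8 (-1.37) and ABCG1 (-1.55, adjusted p = 6.87e-03), given as DUCAP minus VCAP, were called under all 4 scalings. ABCC8 kept its call whichever sample was left out, and ABCG1 lost it without DUCAP repeat 1.

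The promoter windows were compared with the levels as a description. RefSeq windows of 300 bases, 250 before and 50 after the start, were given for 35 of the 46 members. The ratio of observed to expected CpG dinucleotides had a median of 0.906 in the 17 members at 1 TPM or more in all samples, 0.446 in the 8 that reached it in some samples and 0.213 in the 10 that stayed under it. For all genes with a window the medians of these classes were 0.866, 0.702 and 0.279, and 0.731 overall. The ratio was 0.992 for ABCC4, 0.0568 for ABCA12, 1.03 for ABCA5 and 0.157 for ABCA6. ABCC9, with a ratio of 0.976 and at most 0.14 TPM, was the exception among the low members.

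A GC box, searched as GGGCGG on both strands, was in 14 of the 17 windows of the always present members (82.4%), in 2 of the 8 that reached 1 TPM in some samples and in 2 of the 10 that stayed under it. For all genes of these classes the shares were 73.0%, 58.9% and 26.7%, and 54.3% of all 17934 windows held it. The ABCA5 window held it, and those of ABCC4, ABCA12 and ABCA6 did not. The letters TATAAA, searched on both strands, were in 5 of the 35 windows, those of ABCA1, ABCA9, ABCA10, ABCC2 and ABCC5, against 10.2% of all windows. Each gene has 1 window, at 1 RefSeq start. For ABCA9, ABCB9, ABCC10, ABCD3 and ABCG5 this start lies inside the outer bounds of the gene entry. Other starts, which ABCB1 and ABCG2 are known to use, were not searched.

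**Figure D5:**
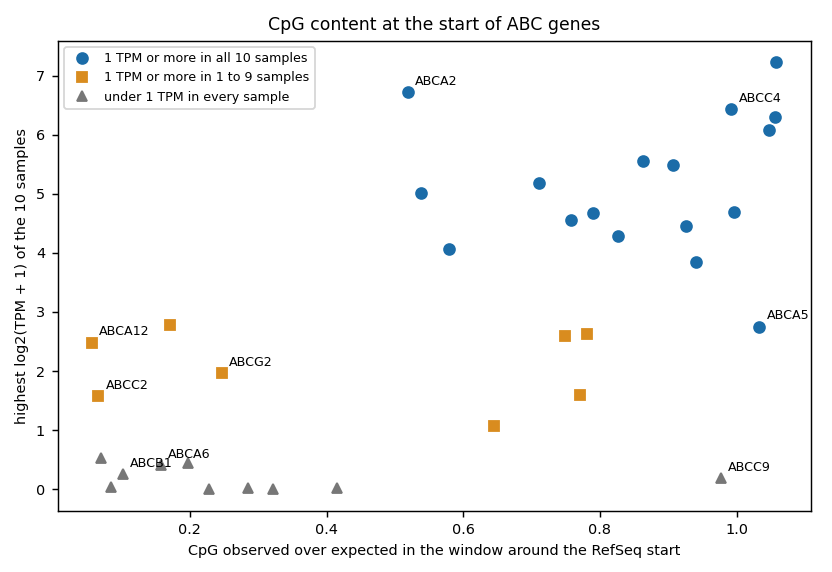
Highest log2(TPM + 1) over the 10 samples (vertical axis) against the observed over expected CpG ratio of the 300-base window (horizontal axis) for the 35 members with a window, by level class. All 17 members present in every sample have a ratio of 0.519 or more, and ABCC9 is the only low member with a ratio near 1.

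Other genes of the same processes were taken from a list of 29, of which 23 were tested and 22 differed across the lines, against 90.8% of all genes. In DU145 13 were higher and 1 lower, against 40.7% and 22.3% of all genes, and in PC3 13 were higher and 6 lower, against 43.2% and 24.7%. In LNCaP 8 were higher and 9 lower, against 38.2% and 24.2%. In DUCAP 1 was higher and 17 lower, against 11.1% and 57.7%, and in VCAP 0 were higher and 16 lower, against 17.3% and 46.6%. The calls of PEX19 and RXRA in DUCAP, both lower, changed sign under another scaling. TAP1, the ABC peptide transporter of antigen presentation, was at 45.3 and 40.6 TPM in DU145, 19.4 to 22.4 TPM in PC3 and LNCaP and at most 4.79 TPM in DUCAP and VCAP. CFTR, the chloride channel of the C subfamily, did not exceed 1.00 TPM. Among regulators, NR1H2, the receptor LXR beta that induces ABCA1 and ABCG1, was at 108 and 114 TPM in PC3. It was at 63.5 and 42.5 TPM in DU145, 41.4 and 44.1 TPM in LNCaP and 5.49 to 8.82 TPM in DUCAP and VCAP. Not all listed regulators had their highest mean in PC3. NR1H3, the receptor LXR alpha, was at 13.47 and 10.91 TPM in LNCaP, 7.92 and 11.4 TPM in PC3 and at most 5.44 TPM elsewhere. RXRA was at 32.79 and 33.18 TPM in LNCaP, 11.92 and 10.28 TPM in PC3 and at most 20.71 TPM elsewhere. PPARG, a lipid-sensing nuclear receptor, was at 257 and 284 TPM in PC3 and at most 19.8 TPM elsewhere, and AHR, the dioxin receptor, was at 34.4 and 34.8 TPM in PC3, 23.9 and 17.2 TPM in DU145 and at most 1.59 TPM elsewhere. NR1I2, the pregnane X receptor that induces ABCB1 in the liver, did not exceed 0.04 TPM. Of the partners and other carriers, SLCO1B3, an uptake carrier of drugs and bile acids, was at 7.05 and 9.21 TPM in DU145, 14.6 and 11.5 TPM in PC3 and at most 0.04 TPM elsewhere, and KCNJ11, the channel subunit that pairs with ABCC8, was at 5.68 and 7.02 TPM in LNCaP, 1.80 to 2.41 TPM in VCAP and DUCAP, 3.49 and 2.01 TPM in DU145 and 0.67 and 0.62 TPM in PC3. Whether any of these levels bears on the transporters was not tested.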

How the data were processed

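RNA of 10 untreated cultures was sequenced from polyA-enriched, strand-specific libraries. Per the labels and the submitters' processing notes, the authors used FastQC 0.11.9, Trim Galore 0.6.5, STAR 2.7.2b and RSEM 1.3.3 with GRCh38, and the paper's methods name Ensembl release 99 and Gencode release 33. The deposited values are TPM, with no scaling between samples stated. TPM keep no depth, so no counting interval was computed and the precision rests on 2 repeats per line. Samples were grouped by the cell line in the labels.

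The values were transformed to log2(TPM + 1), a scale on which the change of low genes is understated. Genes at 1 TPM or more in at least 2 samples were fitted in limma 3.58.1 (R 4.3.3), with 1 coefficient per line, a prior variance that follows the mean level and p-values adjusted over all genes tested by Benjamini-Hochberg at 0.05. Calls were made across the lines (moderated F test), for each line against the mean of the other 4, and for the 10 pairs of lines. The alternatives were another pseudocount or filter, no filter, quantile normalization, median-ratio scaling, totals without mitochondrial genes, no variance trend, a 2-fold requirement, the repeat number as a block and each sample left out. "All 4 scalings" stands for the TPM as deposited, quantile normalization, median-ratio scaling and totals without mitochondrial genes. The fit was tested on simulated data of 17520 genes, in which 200 were shifted by 1.5 (log2). The comparison of LNCaP with the other lines recovered 86.5%, with 3.35% of its calls false, and the F test recovered 66%, with 2.22% false. The 200 genes were shifted in LNCaP only, whereas 90.8% of all genes tested differed across the lines in the data. These rates therefore do not describe the calls made here.

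Values in all samples were given for the 7 drug efflux members and for the 2 called members with the largest positive and the 2 with the largest negative difference in each line, and the other members were described by role and level. A few genes are included in the counts and sums but are not reported here by name. The members, lists and comparisons were chosen with earlier results of these data known. Promoter windows and gene coordinates were read from RefSeq tables of GRCh38.p14, in which all 46 members had a gene entry. Protein sequences were not used here. Further scripts ran in Python 3.11.15 with numpy 2.4.6, pandas 2.3.3 and matplotlib 3.10.9.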

Additional observations from a re-analysis of the deposited data

How the results depend on the processing

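The differences of each line from the mean of the other 4 were followed for the 6 efflux members tested and for the called members with the largest differences, 43 in all. Of their 737 values under the alternatives, 663 kept direction and side of the threshold, 57 kept only the direction, 4 passed the threshold where the value as deposited did not, and 13 changed sign. Among these 43, the sign changes were those of ABCC5 in LNCaP (-0.0866 with quantile normalization, -0.14 with median-ratio scaling), DUCAP (0.22, 0.17), VCAP (0.0293, quantile only), DU145 (-0.00817, quantile only) and PC3 (-0.16, -0.0405), and of ABCC1 in DUCAP (0.15, 0.13) and PC3 (-0.39, -0.27, and -0.14 without mitochondrial genes). The cause was not tested.

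With a 2-fold difference required, the called members fell to 11 for PC3 against the other 4 lines, 9 for DU145, 7 for VCAP, 9 for DUCAP and 6 for LNCaP, and to 8 for LNCaP against DUCAP, 9 against VCAP, 10 against DU145 and 8 against PC3, 2 for DUCAP against VCAP and 5 for DU145 against PC3, since fewer pass by construction. With 2-fold required, 4169 of all 17520 genes were higher and 1600 lower in PC3, and 3714 and 1391 in DU145. The counts of all genes were 1361 and 3368 in VCAP, 809 and 4428 in DUCAP, and 3188 and 1735 in LNCaP. With at least 5 TPM in 2 samples, which leaves 22 members, the called members numbered 10 for LNCaP and 13 for VCAP. They numbered 10 for LNCaP against DU145, 8 against PC3 and 8 for DU145 against PC3. DUCAP had 14 with quantile normalization and 15 with median-ratio scaling, and LNCaP against DUCAP had 8 and 9. A pseudocount of 0.1 gave 8 for DUCAP against VCAP.

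Leaving out 1 sample gave 8 to 18 members for LNCaP, with 8 and 11 without its own repeats 1 and 2, and 14 to 25 for DUCAP, with 14 without its repeat 1. For the pairs it gave 10 to 20 for LNCaP against DUCAP, with 10 without LNCaP repeat 1, 2 to 7 for DUCAP against VCAP, with 2 whenever a repeat of these lines was left out and 3 without either PC3 repeat, and 8 to 15 for DU145 against PC3, with 8 without PC3 repeat 1. The lone sample left was assumed to vary like the other groups. ABCA12, ABCC2 and ABCG2 drop below the filter when a repeat of their high line is left out. The repeat number as a block left 27 members called across the lines, and 16, 25, 21, 21 and 21 for LNCaP, DUCAP, VCAP, DU145 and PC3. Under the block ABCG2 in LNCaP and ABCC5 in DU145 lost their calls. The labels do not say that a number marks a shared batch or day, and the correlation of deviations over 10 pairs of lines had a mean of 0.00922 (-0.19 to 0.25), with values over 0.1 among DUCAP, VCAP and DU145 only (0.25, 0.18 and 0.19), so the samples were not treated as paired. The numbers were those of the biological repeats in the labels, and the other numbers in the DU145 and PC3 sample names were not used.

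The efflux over lipid ratio was 1.26 in LNCaP, 2.44 in DUCAP, 1.75 in VCAP, 3.31 in DU145 and 1.36 in PC3 with a narrower lipid list, and 0.230, 0.278, 0.213, 1.27 and 0.846 without ABCC4. The mean log2(TPM + 1) of the efflux members minus that of the lipid members is another quantity, in which low members count as much as high ones. It was 0.60, 1.04, 0.86 and 0.89 in LNCaP, DUCAP, VCAP and PC3, where the summed efflux TPM was below the lipid sum. The filter was passed by 10 of the 20 lipid members and 6 of the 7 efflux members, so this mean does not speak of the sums.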
